A study of Rattus norvegicus with 19 samples.

Results

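The salt-inducible kinase genes Sik1, Sik2 and Sik3 were followed in cultured rat neurons together with the transcriptionally active putative enhancers (TAPEs) around them. A TAPE is a stretch of open chromatin outside genes that gives RNA from both strands, and its RNA is read as enhancer RNA (eRNA). Members were chosen by the gene symbol in the deposited table of TAPE-gene pairs, which lists every TAPE whose centre lies up to 1 Mb from a gene's start site. This gave 123 TAPEs of 27538: 35 paired with Sik1, 36 with Sik2 and 52 with Sik3. The libraries are RNA-seq of all RNA left once ribosomal RNA was depleted, from Sprague-Dawley rat cultures of cortex, hippocampus or striatum made at embryonic day 18 and kept for 11 days in vitro. Each culture received vehicle or potassium chloride (KCl), which depolarizes neurons, for 1 h. Striatum vehicle cultures gave 4 libraries and each of the other 5 combinations of region and treatment gave 3, so that 19 libraries fall into 6 groups. For the KCl dose, the labels of single samples say 25 mM whereas the text on the series says 10 mM, and the values cannot settle which was used.

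Salt-inducible kinases are serine/threonine kinases of the AMPK-related family. LKB1 (gene Stk11) activates them, and protein kinase A phosphorylates them and holds them in check when cAMP rises. Active SIKs phosphorylate CRTC coactivators and class IIa histone deacetylases, which 14-3-3 proteins then keep in the cytoplasm. There CRTCs cannot drive CREB target genes, which are restrained, and the deacetylases cannot repress MEF2 target genes, which are freed. Sik1 is itself a CREB target that is induced within an hour or so by cAMP or depolarization, while Sik2 and Sik3 are mostly known as steadily expressed kinases.

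Total reads per library, recovered from the deposited values, ran from 46.4 to 72.5 M, of which 47431 to 83272 lay in TAPEs. These totals are above the reads per sample stated in the study's methods, and the reason was not tested. All read counts below are in this recovered unit. TAPE values are reads per kilobase scaled to the total reads of the library (an RPKM with all reads as its base), called CPKM in the study. The 123 SIK TAPEs were shallow: they held a median of 16 reads summed over 19 libraries (2 to 658), and 6 of them reached a mean CPKM of at least 0.05, the limit for testing, which 1870 of all TAPEs reached. The lowest of the 6 stood at 0.0502 and the highest below the limit at 0.0422. The tissue label of cortex vehicle replicate 3 names striatum although its title marks a cortical culture. It was grouped by the title, and the main cortex results are also given without it. In vehicle cultures 8 of 8 solvable striatal neuron markers were highest in striatum, 4 of 5 markers of pallial glutamatergic neurons in cortex and 1 in hippocampus, and 1 of 1 dentate marker in hippocampus. Of 10 solvable glial markers, 0 passed the KCl test below in either direction, a test that called 21.7% of all genes. It called 5 of the 8 striatal and 1 of the 5 pallial markers higher, and 0 of them lower. Of all genes, 6.24% were called higher.

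Gene values per library were recovered as profiles. Each deposited correlation is the Pearson r of a TAPE with a gene, so the correlations of 1 gene with many TAPEs of known values fix that gene's standardised profile over the 19 libraries. This worked for 16180 of 17715 gene symbols, all 3 SIK genes among them, and region-wise correlations that were not used for the SIK solutions were returned to within 6.2e-15. A profile has no zero and no unit: a value of 1 is 1 SD of that gene over the 19 libraries, differences are in the same SD units, and neither fold changes nor levels of different genes can be compared.

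The promoters of the 3 genes are shown because depolarization acts on many genes through CREB, which binds the core letters TGACG, here searched on both strands (CGTCA on the other). Sequences are from RefSeq in the GRCr8 assembly, 250 bases before each start site, 5′ to 3′ on the gene's own strand, with matches in capitals. They lie at chr20:9958647-9958896 on the minus strand for Sik1, chr8:60221651-60221900 on the minus strand for Sik2 and chr8:55208764-55209013 on the plus strand for Sik3. All TAPE positions below are in the Rn6 assembly instead and cannot be set against these.
Sik1: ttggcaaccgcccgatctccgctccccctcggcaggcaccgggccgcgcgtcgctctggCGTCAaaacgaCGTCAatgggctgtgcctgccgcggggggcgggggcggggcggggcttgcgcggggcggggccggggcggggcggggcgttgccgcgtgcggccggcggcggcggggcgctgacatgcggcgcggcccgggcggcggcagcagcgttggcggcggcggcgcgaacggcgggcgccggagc
Sik2: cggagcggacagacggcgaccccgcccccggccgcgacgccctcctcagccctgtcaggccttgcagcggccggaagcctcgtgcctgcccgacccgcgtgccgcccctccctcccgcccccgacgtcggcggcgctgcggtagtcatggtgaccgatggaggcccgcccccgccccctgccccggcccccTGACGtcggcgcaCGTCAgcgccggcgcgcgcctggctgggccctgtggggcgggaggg
Sik3: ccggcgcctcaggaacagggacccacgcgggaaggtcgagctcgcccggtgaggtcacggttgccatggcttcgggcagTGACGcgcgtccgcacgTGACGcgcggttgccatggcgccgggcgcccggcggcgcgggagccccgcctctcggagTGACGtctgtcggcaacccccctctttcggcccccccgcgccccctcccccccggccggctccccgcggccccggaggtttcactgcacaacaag
Sik1 had 2 matches, which begin 191 and 180 bases before the start. Sik2 had 2, at 59 and 46 bases, and Sik3 had 3, at 171, 154 and 95 bases. At least 1 match was present in 19% of 27457 RefSeq promoters of the same length, and at least 2 in 4.21%. The full palindromic site, in which the core and its own reverse complement share the letters CG, was in none of the 3 windows. It was in 1.7% of all promoters. These windows are rich in G and C, at 82.8% for Sik1, 80.4% for Sik2 and 75.6% for Sik3, and a match is a description of the letters, not a binding site.

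Sik1 rose with KCl in every region, and its 6 groups stood apart from each other. In cortex its profile was at -0.92, -0.89 and -0.94 in the vehicle libraries and at 1.17, 0.94 and 0.93 in the KCl libraries. In hippocampus vehicle cultures it was at -1.16, -1.15 and -1.17, and in hippocampus KCl cultures at 0.07, -0.11 and -0.06. In striatum it was at -0.49, -0.48, -0.25 and -0.29 with vehicle and at 1.66, 1.6 and 1.54 with KCl. The groups run from hippocampus vehicle over cortex vehicle, striatum vehicle, hippocampus KCl and cortex KCl to striatum KCl, and no 2 of them overlap. In bulk cultures a lower value can mean fewer cells that express the gene or less RNA per cell, and these cannot be told apart.

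The mean difference of KCl and vehicle over the 3 regions was 1.68 ± 0.069 SD units for Sik1 (SE from limma). An exact permutation test of the KCl labels within regions gave p = 7.1e-05, the smallest that its 14000 arrangements allow, and an adjusted p of 0.0018 over all 16180 genes. By the same test 21.7% of all genes were called. Cortex gave a difference of 1.93 ± 0.122, hippocampus 1.13 ± 0.122 and striatum 1.97 ± 0.114. Within single regions the exact permutation p was 0.1 in cortex and in hippocampus, which is the smallest that 3 against 3 libraries allow, and 0.029 in striatum.

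These differences of Sik1 were not equal between regions. The limma interaction test of gene profiles, added after the data were examined, gave an adjusted p of 0.0121, where 2.95% of genes were called. The hippocampal difference was below the cortical one by 0.81 ± 0.172 (difference -0.81, limma adjusted p = 0.0294), and the striatal difference was above the hippocampal one by 0.85 ± 0.167 (limma adjusted p = 0.0143). Striatum and cortex differed by 0.04 ± 0.167 (limma adjusted p = 0.98). Because the profile is linear and has no zero, equal differences need not be equal folds. Without cortex vehicle replicate 3, the averaged difference was 1.67 and the interaction had an adjusted p of 0.0126, and the averaged differences of Sik2 and Sik3 below were then 0.67 and 0.41. The cortex differences of Sik1, Sik2 and Sik3 were then 1.92, 0.69 and 0.72.

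Sik2, whose product is best known as a metabolic and neuronal CRTC kinase, also rose with KCl, but its profile was ordered first by region. Its values were -0.65, -0.73 and -0.6 in cortex vehicle and 0.11, -0.06 and -0.04 in cortex KCl libraries. Hippocampus gave -1.25, -1.11 and -1.17 with vehicle and -0.65, -0.96 and -0.8 with KCl. Striatum gave 0.66, 0.73, 0.7 and 0.8 with vehicle and 1.65, 1.81 and 1.56 with KCl. Every striatum library, treated or not, was above every cortex and hippocampus library, and hippocampus KCl overlapped cortex vehicle. The averaged difference was 0.66 ± 0.07 (exact permutation p = 7.1e-05, adjusted p = 0.0018), made of 0.66 in cortex, 0.37 in hippocampus and 0.95 in striatum. The interaction test did not call it (limma adjusted p = 0.2).

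Sik3, a kinase known among other things for its part in sleep need, had the smallest KCl difference relative to its own spread. Its values were -1.1, -1.19 and -0.99 in cortex vehicle and -0.44, -0.37 and -0.49 in cortex KCl libraries. Hippocampus gave -0.93, -0.51 and -0.79 with vehicle and -0.34, -0.79 and -0.64 with KCl. Striatum gave 1.16, 0.87, 0.99 and 1.27 with vehicle and 1.32, 1.7 and 1.26 with KCl. KCl and vehicle were apart in cortex and overlapped in hippocampus and striatum. The averaged difference was 0.39 ± 0.097 (exact permutation p = 0.0027, adjusted p = 0.018), with 0.66 in cortex, 0.15 in hippocampus and 0.36 in striatum. The interaction was not called (limma adjusted p = 0.576), and on ranks within regions the KCl difference of Sik3 itself had an adjusted exact permutation p of 0.051. Every KCl library was above every vehicle library in all 3 regions for Sik1 and Sik2 but not Sik3, a pattern that 2.32% of all genes showed.

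**Figure D1:**
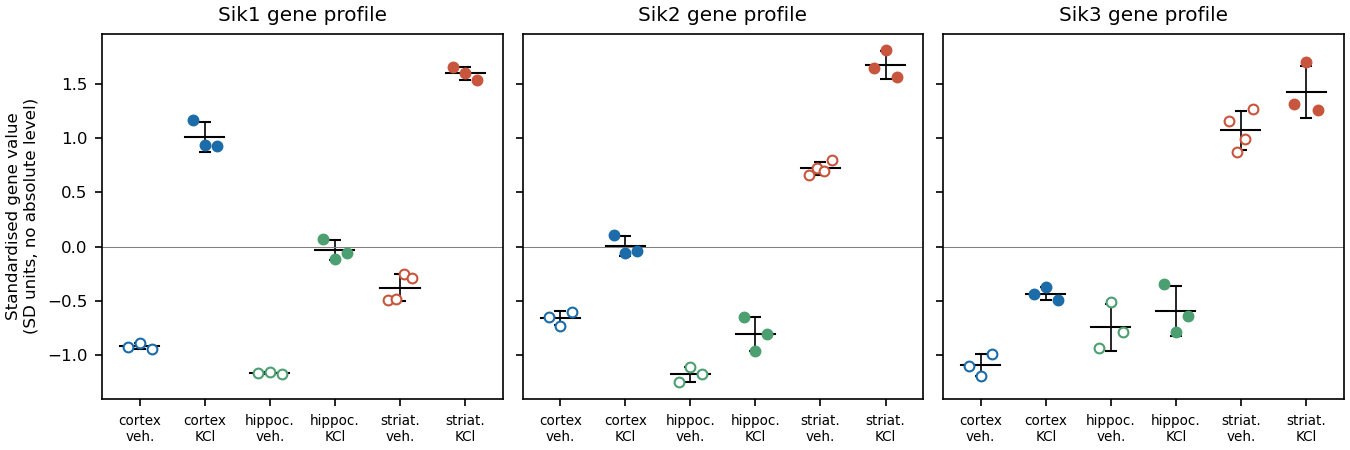
Standardised gene value (y axis, SD units without an absolute level) of Sik1, Sik2 and Sik3 in the 6 groups (x axis). Each circle is 1 library, open for vehicle (veh.) and filled for KCl, bars are the mean and error bars 1 SD. KCl libraries of Sik1 are above the vehicle libraries in each region, whereas Sik3 overlaps in hippocampus and striatum.

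Over the 19 libraries Sik2 and Sik3 were more alike (r = 0.925) than Sik1 was to Sik2 (0.723) or to Sik3 (0.536). Within cortex, hippocampus and striatum, r was 0.988, 0.92 and 0.987 for Sik1 with Sik2, 0.972, 0.458 and 0.722 for Sik1 with Sik3, and 0.976, 0.746 and 0.789 for Sik2 with Sik3. After the mean of each of the 6 groups was subtracted, r was 0.558 for Sik1 with Sik2, 0.275 for Sik1 with Sik3 and 0.769 for Sik2 with Sik3. These are descriptions, since the libraries of a group share region and treatment.

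The genes most like Sik1 over the 19 libraries were Per1 (r = 0.994), a clock gene with CREB sites, Emd (0.993), which encodes the nuclear envelope protein emerin, Nr4a1 (0.984), an immediate early nuclear receptor, Rheb (0.975), the GTPase that activates mTORC1, and Npas4 (0.974), a neuronal activity-dependent transcription factor. With group means subtracted, r was 0.85 for Per1, 0.82 for Npas4, 0.63 for Nr4a1, 0.47 for Emd and 0.29 for Rheb. All 5 rose with KCl, by 1.63 (Per1), 1.72 (Emd), 1.68 (Nr4a1), 1.66 (Rheb) and 1.71 SD units (Npas4), each at an adjusted exact permutation p of 0.0018. They were picked for likeness to a profile that rises with KCl in these same libraries. Their rise follows from that choice and gives no support of its own. In all, 61 genes had r above 0.9 with Sik1. Sik2 was most like Cpeb3 (0.994), a regulator of mRNA translation at synapses, Ivns1abp (0.988) and Cited2 (0.987), a CBP/p300-binding protein, and had 416 genes above 0.9. Sik3 was most like Nol4 (0.978), Nyap2 (0.978) and Sv2c (0.977), a synaptic vesicle protein, and had 779. With group means subtracted, r with Sik2 was 0.8 for Cpeb3, 0.37 for Ivns1abp and -0.14 for Cited2, and r with Sik3 was 0.75 for Nol4, 0.54 for Nyap2 and 0.45 for Sv2c.

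Genes of the pathway were taken from fixed lists and tested in the same way. The test called 6.24% of all genes as higher and 15.5% as lower with KCl, and the median difference over all genes was -0.15 SD units. Of 12 upstream kinases, scaffolds and protein kinase A subunits, 4 rose, 3 fell and 5 did not pass, with a median of 0.05. Prkar1a, a regulatory subunit that holds protein kinase A inactive, rose by 1.32 SD units (adjusted exact permutation p = 0.0018), and Stk11, the SIK-activating kinase LKB1, rose by 1.22 (adjusted exact permutation p = 0.0074). Strada, a pseudokinase partner of LKB1, fell by 0.98 (adjusted exact permutation p = 0.009). The difference of Stk11 was 1.64 in cortex and 2.02 in striatum against 0.01 in hippocampus (limma interaction test, adjusted p = 0.0331), and the cortex value was 1.29 without cortex vehicle replicate 3.

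Among SIK substrates and their partners, 14 of the 15 listed were in the table, of which 2 rose, 6 fell and 6 did not pass (median 0.13). Hdac7, a class IIa histone deacetylase, fell by 1.6 SD units and Ywhaz, a 14-3-3 protein, rose by 1.05 (adjusted exact permutation p = 0.0018 for each). Crtc1, the CRTC coactivator most studied in neurons, fell by 1.34 (adjusted exact permutation p = 0.0058), and Crtc2 and Crtc3 fell as well, by 0.61 and 1.14 (0.033 and 0.023). The other calls were Hdac5 (0.38, higher), Hdac9 (-0.21, lower) and Ppp3ca (-0.16, lower).

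CREB and MEF2 factors gave 1 higher and 1 lower gene of 7 measured. Crem, whose product includes an inducible repressor of CREB sites, rose by 1.63 SD units (adjusted exact permutation p = 0.0018), and Creb1 fell by 1.18 (0.0027). Of the other AMPK-related kinases 11 of 12 had a profile. Of these 0 rose, 9 did not pass, and 2 fell, Nuak2 by 1.23 (adjusted exact permutation p = 0.0098) and Mark2 by 0.77 (0.021). The 11 activity-induced genes of the list all rose, Crem being on both lists, with a median of 1.68. Their orders of regions differed: the cortical, hippocampal and striatal differences were 1.63, 1.41 and 0.02 for Bdnf, a neurotrophin, and 1.93, 1 and 1.95 for Per1.

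The SIK TAPEs lay far from their genes for the most part. The nearest TAPE to a start site was 21156 bp away for Sik1, 91777 bp for Sik2 and 9733 bp for Sik3. On the gene's own strand, 23 of 35 Sik1 TAPEs lay past the end of the gene, as did 17 of 36 for Sik2 and 46 of 52 for Sik3. In the deposited correlations over 19 libraries, r was above 0.5 for 7 of the 35 Sik1 TAPEs (20%), 4 of the 36 Sik2 TAPEs (11.1%) and 4 of the 52 Sik3 TAPEs (7.69%), against 5.3% of all 388605 pairs. It was below -0.5 for 0, 2 and 3 of them, against 2.68% of all pairs. Median r was 0.0595, 0.0299 and 0.0547. Most of these values rest on few reads: of the 15 TAPEs above 0.5, 4 reached the limit for testing.

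**Figure D2:**
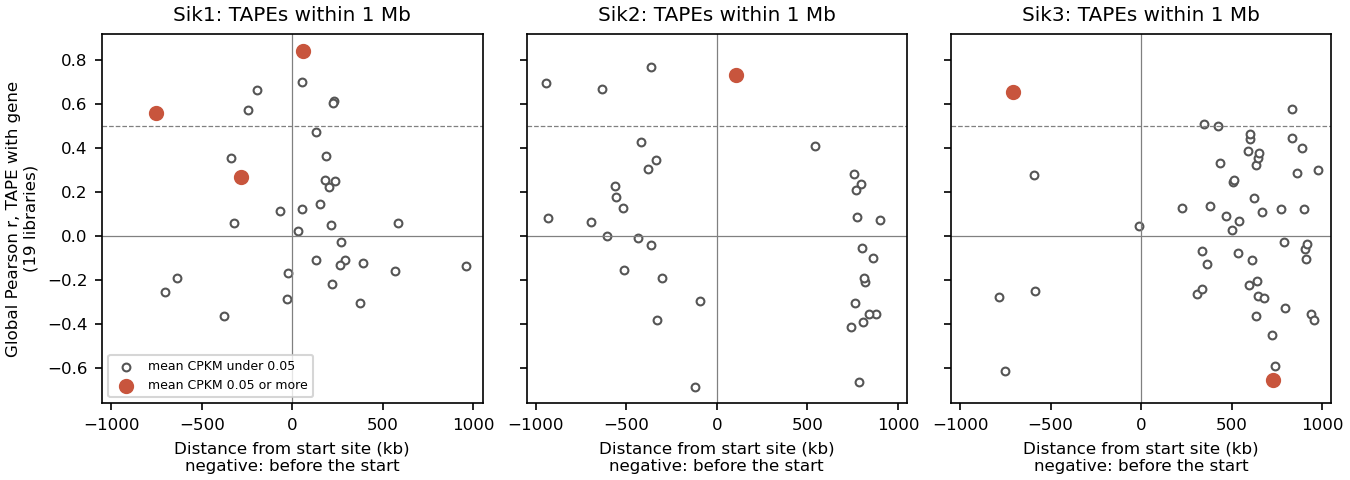
Deposited Pearson r of each TAPE with its SIK gene over 19 libraries (y axis) against the distance of the TAPE centre from the start site in kb (x axis, negative before the start on the gene's strand). Filled circles have a mean CPKM of at least 0.05, and the dashed line marks r = 0.5. The highest value is the Sik1 TAPE 57 kb past the start site, at 0.844.

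The strongest Sik1 TAPE was chr20:10622072-10624253 (Rn6), intergenic and 57121 bp from the start site, 44.2 kb past the end of Sik1 and 25.2 kb past the end of LOC102554931. Sik1 itself spans chr20:10668411-10680283 on the minus strand. In cortex the TAPE was at 0.118, 0.177 and 0.0408 CPKM in vehicle and at 0.415, 0.278 and 0.208 in KCl libraries. In hippocampus it was at 0.113, 0.118 and 0.0166 with vehicle and at 0.241, 0.162 and 0.199 with KCl. In striatum it was at 0.323, 0.277, 0.269 and 0.317 with vehicle and at 0.848, 0.608 and 0.685 with KCl. Every KCl library was above every vehicle library of its region, in all 3 regions, as was so for 0.374% of tested TAPEs. The reads behind these values ran from 2, in hippocampus vehicle replicate 3, to 98.

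Mean CPKM at this TAPE went from 0.112 ± 0.0682 to 0.3 ± 0.105 in cortex (SD, n = 3 each), 2.68-fold, from 0.0828 ± 0.0574 to 0.2 ± 0.0395 in hippocampus (n = 3 each), 2.42-fold, and from 0.296 ± 0.0273 (n = 4) to 0.714 ± 0.122 (n = 3) in striatum, 2.41-fold. On log2(CPKM + 0.05), averaged over regions, it rose by 1.11 ± 0.18 (SE, limma adjusted p = 0.000323), and 6.9% of 1870 tested TAPEs were called in that comparison. Striatum alone gave 1.13 ± 0.17 (limma adjusted p = 0.00776, where 1.23% were called). Cortex gave 1.17 ± 0.34 and hippocampus 1.02 ± 0.38, which did not pass (limma adjusted p = 0.207 and 0.351), in comparisons that called 0.321% and 0.0535% of tested TAPEs. The interaction test called no difference of the KCl effect between regions at this TAPE (limma adjusted p = 0.997), and it called 0.0535% of TAPEs. Without cortex vehicle replicate 3, the cortex value was 0.80 and the averaged one 0.98 (limma adjusted p = 0.527 and 0.00111), and without hippocampus vehicle replicate 3 the hippocampus value was 0.58. The striatum call was lost without striatum vehicle replicate 4, KCl replicate 1 or KCl replicate 7 (limma adjusted p = 0.0517, 0.0591 and 0.0715).

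**Figure D3:**
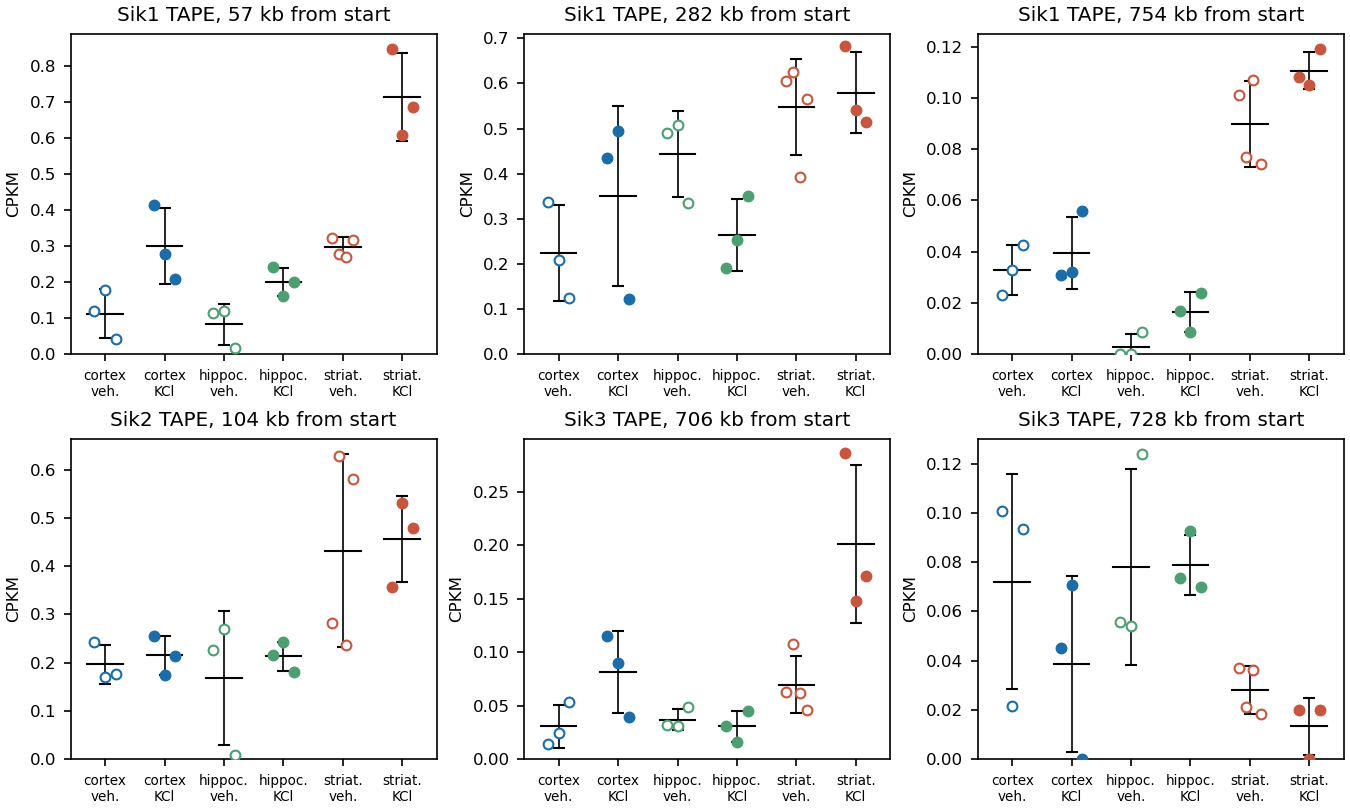
CPKM (y axis, from 0) of the 6 SIK TAPEs that reached the limit for testing, in the 6 groups (x axis). Each circle is 1 library, open for vehicle and filled for KCl, bars are the mean and error bars 1 SD. At the Sik1 TAPE 57 kb from the start the KCl libraries lie above the vehicle libraries in each region, and at the other 5 they overlap in at least 1 region.

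The r of this TAPE with Sik1 was 0.844 over 19 libraries, 0.834 in cortex (6 libraries), 0.855 in hippocampus (6) and 0.951 in striatum (7). Leaving out any 1 library moved the global value between 0.816 and 0.889, and it was 0.51 once group means were subtracted. Of 33 genes within 1 Mb, Rrp1 (0.898, 358836 bp), which encodes a nucleolar ribosomal RNA processing factor, and Pdxk (0.867, 307356 bp), the pyridoxal kinase, were above Sik1. U2af1 (0.757), a splicing factor, Rrp1b (0.745), Trpm2 (0.723), a cation channel, Cstb (0.662), the protease inhibitor cystatin B, Abcg1 (0.651), a sterol transporter, and Gatd3a (0.604) were the others above 0.5. The nearest start site, that of LOC102554931 at 29320 bp, was at 0.0669. Over all solvable genes of the genome, 143 of 16180 had a higher r with this TAPE than Sik1 did.

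The partner genes separated within regions. For Rrp1 the cortical r was 0.323, the hippocampal 0.897 and the striatal 0.933. Pdxk was at 0.96, -0.528 and 0.945 in the same order. Without cortex vehicle replicate 3, the cortical r was -0.0851 for Rrp1, 0.956 for Pdxk and 0.79 for Sik1. With group means subtracted, Agpat3, an acyltransferase whose r over 19 libraries was -0.657, had the highest value of the 33 genes at 0.62. Sik1 followed at 0.51, Pdxk at 0.488 and Abcg1 at 0.416, and Rrp1 was at -0.222.

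**Figure D4:**
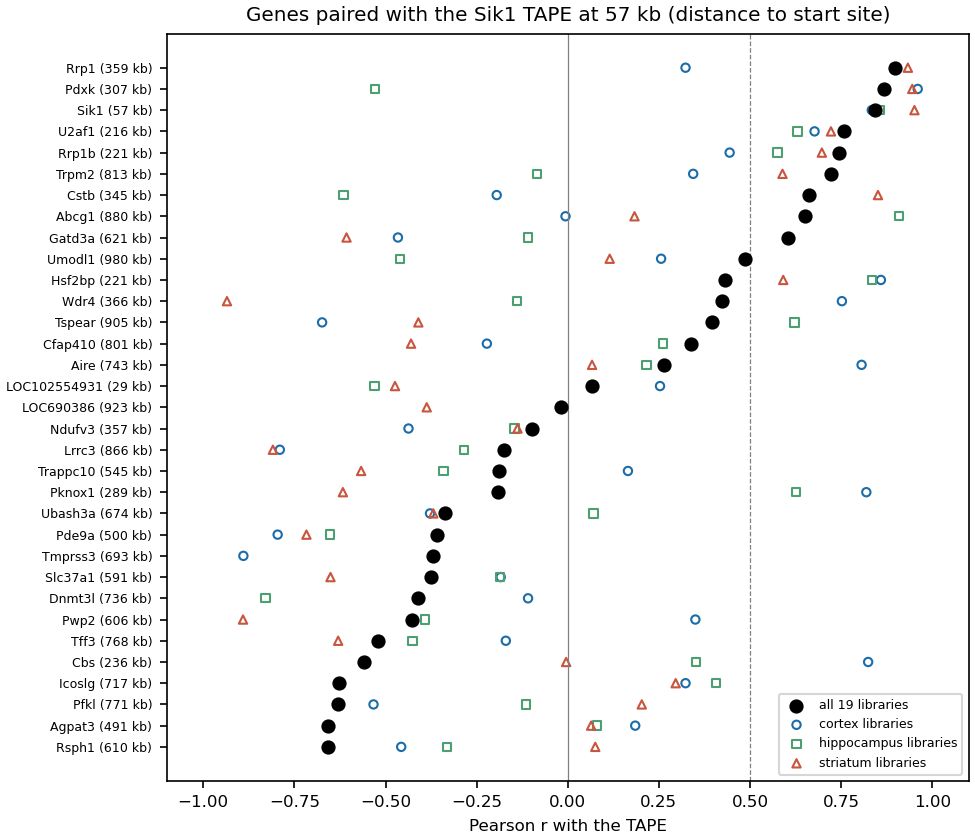
Pearson r (x axis) of the Sik1 TAPE at 57 kb with each of the 33 genes whose start site lies within 1 Mb (y axis, distance in kb), over 19 libraries (filled) and over the libraries of each region (open). Rrp1, Pdxk and Sik1 lead over 19 libraries, and region values of Rrp1 and Pdxk spread more widely than those of Sik1.

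Rrp1 and Pdxk were tested as genes too. Rrp1 stood at -0.51, -0.69 and -1.07 in cortex vehicle and -0.7, 0.19 and 0.23 in cortex KCl libraries, so that the groups overlapped there. It was at -1.21, -1 and -1.16 against -0.17, -0.59 and -0.43 in hippocampus, and at 0.3, 0.31, 0.49 and 0.42 against 1.95, 2.03 and 1.62 in striatum. The averaged difference was 0.96 (adjusted exact permutation p = 0.0034), against 0.42 for Pdxk (0.023), which changed by 1.06 in striatum but by -0.08 in hippocampus. Of all 47 other genes paired with a Sik1 TAPE, 5 rose (Hsf2bp, Pdxk, Rrp1, Rrp1b and U2af1), 5 fell (Adarb1, Fam207a, Pcbp3, Pde9a and Pttg1ip) and 37 did not pass, with a median of -0.14. Over all genes, 6.24% were called higher and 15.5% lower, with a median of -0.15. Pde9a, a cyclic GMP phosphodiesterase, fell by 1.54 SD units and Hsf2bp rose by 1.24 (adjusted exact permutation p = 0.0018 for each).

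**Figure D5:**
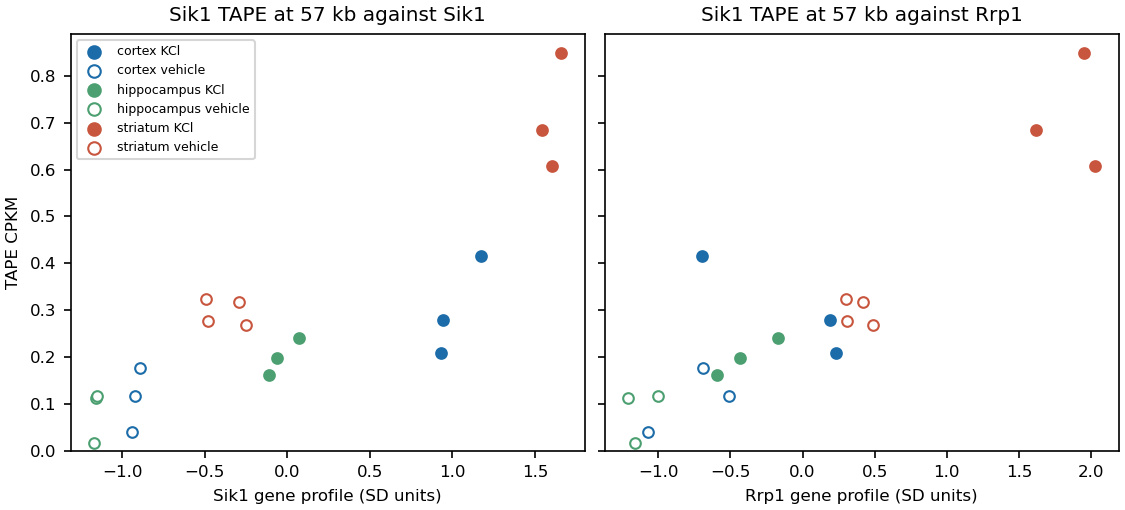
CPKM of the Sik1 TAPE at 57 kb (y axis) against the gene profile (x axis, SD units) of Sik1 on the left and of Rrp1 on the right, 1 point per library. Striatum KCl libraries are highest on both axes, and 1 cortex KCl library at 0.415 CPKM lies among vehicle libraries on the Rrp1 axis but not on the Sik1 axis.

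A neighbouring TAPE on the side towards Sik1, 53871 bp from its start, chr20:10625294-10627530, had r = 0.702 with Sik1 but only 57 reads in 11 libraries. Its counts were 10, 22 and 6 reads in striatum KCl libraries, 2, 4 and 4 in cortex KCl libraries and 0 to 2 elsewhere. Again Rrp1 (0.767) was above Sik1, and Pdxk (0.688), Aire (0.637) and U2af1 (0.635) followed. No Sik1 TAPE had Sik1 as its gene of highest r, and Rrp1 was above 0.5 at 9 of the 34 Sik1 TAPEs with which it was paired, among them 4 where it was the highest.

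The other tested Sik1 TAPEs followed other genes. The TAPE chr20:10962037-10963226, 282 kb before the start and 3.1 kb past the end of Cstb, had the highest mean of all SIK TAPEs at 0.409 CPKM. Its vehicle libraries were at 0.49, 0.507 and 0.335 CPKM in hippocampus and its KCl libraries at 0.191, 0.252 and 0.35, a log2 difference of -0.66 ± 0.24 (limma adjusted p = 0.334), so this did not pass and the groups overlapped. In cortex the mean was 0.223 ± 0.107 with vehicle and 0.351 ± 0.2 with KCl (SD, n = 3 each), and in striatum 0.548 ± 0.107 (n = 4) and 0.58 ± 0.0896 (n = 3). Its r with Sik1 was 0.27 overall and -0.796 in hippocampus. Trpm2 (0.661) and Pdxk (0.657) were its genes of highest r, 9 of its 34 genes were above 0.5, Rrp1 (0.525) among them, and Cstb, its nearest gene at 5801 bp, was at 0.572.

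The TAPE chr20:11433122-11435219 lies 754 kb before Sik1 and 1 kb before the start of Trpm2. It was highest in striatum and of low depth. Its values were 0.0741 to 0.119 CPKM over 7 striatum libraries, 0.0229 to 0.0557 over 6 cortex libraries and 0 to 0.0238 over 6 hippocampus libraries. In hippocampus it held 1 read in all vehicle libraries together and 6 in KCl libraries. A value of 0 allows up to 3 reads, about 0.0207 to 0.0323 CPKM over 2 kb in these libraries, by counting error alone. Its r was 0.95 with Trpm2, its nearest gene, 0.946 with Rrp1b and 0.56 with Sik1, and 14 of 31 genes were above 0.5. With group means subtracted, r fell to -0.00821 for Trpm2 and -0.123 for Sik1.

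The TAPEs nearest to the Sik1 start gave little RNA. The one 21156 bp before the start held 7 reads in 4 libraries (r = -0.168), and the one at 28836 bp, past the end of the gene, held 14 reads in 6 libraries (r = 0.0198). The lowest r of a Sik1 TAPE was -0.365, at 4 reads in 2 libraries. The remaining 4 Sik1 TAPEs above 0.5 held 13 to 70 reads in all and lay 194 to 244 kb from the start, with r from 0.572 to 0.663. At each of them Pdxk or Rrp1 had the highest r.

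Sik2, at chr8:55308757-55408464 on the minus strand, had 1 tested TAPE, chr8:55303360-55305473, only 3.3 kb past the end of the gene and 2 kb past the end of Ppp2r1b. Its values were 0.243, 0.17 and 0.176 CPKM in cortex vehicle, 0.255, 0.175 and 0.214 in cortex KCl, 0.226, 0.269 and 0.00857 in hippocampus vehicle and 0.215, 0.242 and 0.181 in hippocampus KCl libraries. Striatum gave 0.283, 0.629, 0.237 and 0.58 with vehicle and 0.357, 0.532 and 0.48 with KCl. KCl and vehicle overlapped in all 3 regions, and the averaged log2 difference was 0.29 ± 0.23 (95% interval -0.18 to 0.75, limma adjusted p = 0.475). A single library, hippocampus vehicle replicate 3 with 1 read, stood apart, and without it the hippocampus difference turned from 0.6 to -0.18 and the averaged one fell to 0.03.

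Sik2 was the gene of highest r of that TAPE among 26, at 0.731, while within regions r was 0.388, 0.205 and 0.161 in cortex, hippocampus and striatum. Ppp2r1b, a protein phosphatase 2A subunit and the nearest gene by start site, was at -0.54. The highest r of Sik2 was with chr8:55770837-55772957, 363433 bp before its start, at 0.767 and 32 reads in 8 libraries. There Zc3h12c, a zinc finger RNase, was higher at 0.788. The lowest was -0.687, at chr8:55525982-55528172, 118613 bp before the start (90 reads), where Cryab, a small heat shock protein, was the highest at 0.73. The nearest TAPE, at 91777 bp, held 14 reads and had r = -0.296.

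Sik3, at chr8:50310405-50520173 on the plus strand, had 2 tested TAPEs, whose r with the gene was of opposite sign. The TAPE chr8:49602840-49605082, 706444 bp before the start and 16.5 kb from Tmprss13, had r = 0.656, with Sik3 the highest of its 54 genes. Its values were 0.0143, 0.0246 and 0.053 CPKM in cortex vehicle and 0.115, 0.09 and 0.0391 in cortex KCl libraries, and 0.0315, 0.0307 and 0.0485 against 0.0312, 0.0157 and 0.0446 in hippocampus. Striatum gave 0.0628, 0.108, 0.0615 and 0.0462 with vehicle and 0.286, 0.148 and 0.171 with KCl, with no overlap. The log2 difference was 1.06 ± 0.3 in striatum (limma adjusted p = 0.128) and 0.54 ± 0.18 averaged over regions (limma adjusted p = 0.0631), so neither passed. Cortex gave 0.69, and 0.88 without cortex vehicle replicate 3 (limma adjusted p = 0.505 and 0.567). The averaged value passed when each library was centred on its median (0.67, limma adjusted p = 0.0247) or with a pseudocount of 0.1 (0.4, limma adjusted p = 0.0481). It also passed without cortex KCl replicate 3 (0.63) or striatum vehicle replicate 4 (0.59).

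The TAPE chr8:51037863-51039767, 728410 bp from the start and past the end of Sik3, had the lowest r of the gene, -0.658, and its deepest library held 13 reads. Its group means were 0.0721 and 0.0386 CPKM in cortex vehicle and KCl, 0.0779 and 0.0787 in hippocampus and 0.0281 and 0.0133 in striatum, and the averaged log2 difference was -0.25 ± 0.19 (limma adjusted p = 0.471). With group means subtracted, r was -0.0264 here and -0.266 at the TAPE before. The nearest TAPE to Sik3, chr8:50299681-50301663, 9733 bp before its start, had 38 reads and r = 0.0438 overall but 0.814 in hippocampus. The next, at 223145 bp and past the end of the gene, had 8 reads and r = 0.126.

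Over the 6 tested TAPEs, the median log2 difference with KCl in cortex, hippocampus and striatum came to 0.285, 0.186 and 0.183, beside -0.091, -0.16 and -0.17 over all tested TAPEs. Averaged over regions, 33 of all tested TAPEs were called higher and 96 lower, against 57 and 38 when each library was centred on its median. KCl was called at 1 of the 6 averaged over regions, 1 in striatum and 0 in cortex and hippocampus, and an effect that differs between regions at 0 of the 6. With no adjustment of limma's p at 0.05 there were 1 in cortex, 2 in hippocampus and 1 for the interaction. The same limit gave 2 in striatum and 2 averaged over regions. The share of all tested TAPEs past it was not counted, so these counts carry no weight of their own. Limma voom on recovered reads also called 0 of the 6 in cortex and in hippocampus. All 6 were called region-dependent with both treatments in the fit, in a test that called 48.8% of tested TAPEs. With vehicle libraries only, 4 of the 6 were called, beside 36.1% of tested TAPEs, and the Sik3 TAPEs at 706 and 728 kb were not (limma adjusted p = 0.24 and 0.171). The limit for testing is a mean over all libraries, so a TAPE of low mean, such as those at 0.0508 and 0.0502, reached it only through the regions where it was high, and the count of 6 gives no support of its own. With both treatments pooled, 5 of them had their highest mean in striatum, such as 0.475 ± 0.235 CPKM (SD, n = 7) against 0.206 ± 0.13 (n = 6) in cortex and 0.142 ± 0.078 (n = 6) in hippocampus at the Sik1 TAPE 57 kb away (limma adjusted p = 0.000844). The Sik2 TAPE was at 0.443 ± 0.152, 0.205 ± 0.0374 and 0.19 ± 0.0936 in the same order (limma adjusted p = 0.00222). The exception was the Sik3 TAPE at 728 kb, at 0.0218 ± 0.0125 in striatum, 0.0554 ± 0.0402 in cortex and 0.0783 ± 0.0262 in hippocampus (limma adjusted p = 0.0148). Striatal neuron markers were highest in the same cultures, 8 of 8, Drd1, Penk, Gad1 and Gad2 among them rose with KCl as well, and their part in these results was not tested.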

How the data were processed

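Reads had been trimmed with TrimGalore 0.4.5, aligned with STAR to Rn6 (Ensembl annotation), merged with SAMtools 1.9 and counted over TAPEs with SeqMonk, which took reads of either strand and kept duplicates. The authors deposited RPKM values (CPKM, not log transformed), and a correlation score, the Pearson r of TAPE and gene CPKM. Values times length and library total were whole reads within 0.01 for 100% of values, which gave depth. Floors cover counting error only, and reads copied by PCR are not independent molecules. The interval given for the Sik2 TAPE is limma's and rests on the spread between libraries.

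TAPEs whose CPKM averaged 0.05 or more were tested with limma 3.58.1 (R 4.3.3) on log2(CPKM + 0.05), which understates changes of low TAPEs, two-sided, with Benjamini-Hochberg adjustment over all tested TAPEs. The authors used DESeq2 on counts, and limma voom on recovered reads was an alternative here. Gene profiles were solved in Python 3.11.15 with numpy 2.4.6. Their permutation test, two-sided, took the mean of the 3 region-wise differences. Scripts were tested on simulated data.

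Members and lists were chosen with earlier results of these data known. TAPEs named were those tested, the 2 nearest and those of highest and lowest r for each gene, with their nearest and best genes. Other Sik1 TAPEs above 0.5 and Aire were named after their values were seen. Like genes were the 5 of highest r for Sik1 and 3 each for Sik2 and Sik3. Lists give counts and up to 3 genes in full. The study's methods call libraries biological replicates and count striatum libraries per treatment the other way round from the titles, which were used. Sequences of TAPEs were not used here.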

Additional observations from a re-analysis of the deposited data

Results flagged for a closer look

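The KCl difference of the Sik1 gene profile differed between regions, by a test of the difference itself: the limma interaction test over 19 libraries gave an adjusted p of 0.0121. Cortex gave a difference of 1.93 SD units, hippocampus 1.13 and striatum 1.97, and KCl libraries were higher in all 3. With each library left out in turn the adjusted p ran from 0.00985 to 0.0361, the highest without hippocampus KCl replicate 2. At the Sik1 TAPE 57 kb from the start site, the interaction test on logarithms of CPKM gave a limma adjusted p of 0.997. The gene profile was tested on a linear scale, so the results for gene and TAPE cannot be compared. Mean CPKM at the TAPE rose from 0.112 to 0.3 in cortex, 0.0828 to 0.2 in hippocampus and 0.296 to 0.714 in striatum. As folds these were 2.68, 2.42 and 2.41, and the linear rises were not tested between regions. In striatum vehicle, the only group of 4 libraries, no library stood apart at the 6 tested TAPEs or in the 3 gene profiles by Dixon's test, where the largest gap was 0.743 of the range.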

How the results depend on the processing

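The count of SIK TAPEs called for KCl in striatum went from 1 to 0 with no filter on low TAPEs and in 1 fit of all 6 groups (limma adjusted p = 0.383 and 0.0511 for the Sik1 TAPE at 57 kb), and leaving out 1 library gave 0 to 1. The count averaged over regions went from 1 to 2 with a pseudocount of 0.1 and with centred libraries, and was 1 to 2 with 1 library left out. Region-dependent TAPEs went from 6 to 15 with no filter, when all 123 were tested, and to 4 with vehicle libraries only. The Sik3 profile no longer passed on ranks within regions (2.31 ranks, adjusted p = 0.051) or with the replicate block in cortex and hippocampus (0.41 SD units, unadjusted exact sign-flip p = 0.094, where the smallest possible is 0.031). Of the 7 Sik1 TAPEs above r = 0.5, 2 were above 0.7 and 2 had a mean CPKM of at least 0.05. After group means were subtracted, 2 Sik1 TAPEs were above 0.5, of which 1 was among those 7. For Sik2 the counts were 4, with 2 above 0.7 and 1 at that CPKM. For Sik3 they were 4, with 0 above 0.7, 1 at that CPKM and 2 by Spearman's rho. Leaving out 1 library gave 3 to 7 for Sik3. After group means were subtracted, 3 Sik2 TAPEs and 3 Sik3 TAPEs were above 0.5. For each gene, 0 of these were among its 4 before. Same-numbered vehicle and KCl libraries did not deviate together (correlations of -0.04 to 0.01 over tested TAPEs). Counting noise in shallow TAPEs also keeps such correlations near 0, so this cannot decide whether the numbers pair libraries. The replicate block left the counts called at 0 in cortex, 0 in hippocampus and 1 averaged over both. Gene profile differences ran from 1.65 to 1.69 for Sik1, 0.64 to 0.69 for Sik2 and 0.34 to 0.43 for Sik3 with 1 library left out. Depth limits the rest: 117 of 123 TAPEs were below the limit for testing. The cause of these changes was not tested.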
